A study of Mus musculus with 11 samples.

Results

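The genes described here are the 5 members of the Ikaros zinc finger family, Ikzf1 (Ikaros), Ikzf2 (Helios), Ikzf3 (Aiolos), Ikzf4 (Eos) and Ikzf5 (Pegasus), together with Foxp3, the forkhead factor that defines CD4+ Tregs. They were taken by symbol from a table of 54532 mouse genes, in which each of the 6 symbols named 1 row. RNA was sequenced in bulk from CD8+ Tregs, sorted from the spleens of WT mice as CD8+CD44+Ly49+CD122+ cells. There were 11 libraries, of which 6 were from young mice (3 male, 3 female) and 5 from middle-aged mice (2 male, 3 female). Young mice were given as 2 to 3 months of age in the sample records and middle-aged mice, which the labels call old, as 10 to 12 months. The paper's figure legend for the sequenced cells gives 3 months and 12 months. All groups shared the WT genotype, the spleen and the sort, and no group was treated. Whether a library held cells of 1 mouse or of several was not given in the sources used here.

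Ikaros proteins bind DNA through zinc fingers near the amino terminus and pair with each other through zinc fingers near the carboxyl terminus. They recruit repressor complexes such as NuRD and keep lymphocyte genes off or on in a stage-dependent way. Helios marks CD4+ Foxp3+ Tregs and Ly49+ CD8+ Tregs, and is needed for the stability of both. Eos works with Foxp3 in CD4+ Tregs as a corepressor, while Ly49+ CD8+ Tregs are described as lacking Foxp3. The question for these genes was whether the transcripts of the regulatory factors differed between young and middle-aged CD8+ Tregs.

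Because the family members are close relatives, the second DNA-binding zinc finger of Ikzf1, Ikzf2, Ikzf3 and Ikzf4 is shown, since it bears on how far their reads can be told apart. The sequences are the sense strand of the GRCm38 genome (mm10), read 5′ to 3′, and the capitals mark the codons of the paired cysteines and paired histidines that hold the zinc ion.
Ikzf1, chr11:11754024-11754086, plus strand: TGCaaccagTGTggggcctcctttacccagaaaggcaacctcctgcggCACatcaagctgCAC
Ikzf2, chr1:69570581-69570643, minus strand: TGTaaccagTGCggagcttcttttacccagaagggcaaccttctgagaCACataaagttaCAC
Ikzf3, chr11:98488940-98489002, minus strand: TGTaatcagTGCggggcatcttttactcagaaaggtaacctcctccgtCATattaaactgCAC
Ikzf4, chr10:128640229-128640291, minus strand: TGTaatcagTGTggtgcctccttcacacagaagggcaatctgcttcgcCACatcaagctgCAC
Each finger lies in exon 5 of the longest coding transcript of its gene. All 4 encode the same 21 residues (21 of 21 in each pair), yet between 10 and 15 of the 63 bases differed from pair to pair. The second finger of Ikzf5 shared 5 of 21 residues with each of the others. It was paired by its order in the protein and not by alignment, so it may not be the matching finger. The shared residues include the cysteines and histidines by which fingers were found.

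Reads of Ikzf1, Ikzf2, Ikzf3 and Ikzf4 could accordingly be separated. Of all the 31-base words in the annotated transcripts, 0 of 5833 for Ikzf1 and 0.0115% for Ikzf3 occurred in any other gene. The share was 1.12% for Ikzf2, mostly from the antisense gene Gm29114, which was at 0 counts in 10 of 11 libraries and at 3 counts in middle-aged female 3. Ikzf2 and Ikzf4 had 3 words in common, and no other pair of the 6 genes had any. In contrast, 82.7% of the words of Ikzf5 also lay in other genes, chiefly Pstk, a kinase gene that runs into Ikzf5 from the opposite strand and had 239 to 1059 counts. For Foxp3 the share was 26.4%, from Flicr (0 to 15 counts), Ccdc22 (0 counts in all 11 libraries) and other neighbours. How the authors' counting treated such reads, and whether it used strand, was not given, so the values of Ikzf5 and Foxp3 are uncertain to that extent.

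The libraries held 6135736 to 24394532 counts in genes, and young male 1 and young female 1 (8421396 counts) were the only ones under 10000000. The sorted identity was visible in every library. Cd8a, the CD8 coreceptor, lay at 641 to 1014 CPM (counts scaled to a common library size with TMM factors), Il2rb, which encodes CD122, at 551 to 2622 CPM, and Klra6, which encodes Ly49F, at 85.1 to 417 CPM. Cd4 was at 0.278 to 18.7 CPM. Markers of other cells were also present, and middle-aged female 2 stood apart: its 9 myeloid markers summed to 2714 CPM, against 47.6 to 337 CPM in the other 10 libraries. Values without that library are given for Ikzf2, Ikzf3, Foxp3 and some of the other genes.

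Ikzf1 and Ikzf3 were the most abundant of the 6 genes, Ikzf2 was intermediate, and Foxp3, Ikzf5 and Ikzf4 were low. Per kilobase of the deposited gene length, Ikzf1 averaged 30.9 ± 8.99 CPM (SD, n = 11), Ikzf3 13.8 ± 4.97, Ikzf2 2.53 ± 1.32, Foxp3 0.479 ± 0.739, Ikzf5 0.235 ± 0.145 and Ikzf4 0.159 ± 0.143. On this scale Ikzf1 was above Ikzf3 in 11 of 11 libraries, but the order of these 2 genes depended on the length used. Per kilobase of the longest coding transcript they averaged 34.5 ± 10.1 and 33.0 ± 11.9 CPM, and Ikzf1 was higher in 7 of 11 libraries. Ikzf3 and Ikzf2 did not overlap between any libraries on either scale. The lower neighbours could not be ordered: Foxp3 was above Ikzf5 in 5 of 11 libraries and Ikzf5 above Ikzf4 in 6 of 11. Helios was thus the third member of the family by transcript level in these libraries, well below Ikaros and Aiolos. The part of RNA from other cells in this order was not tested.

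**Figure D1:**
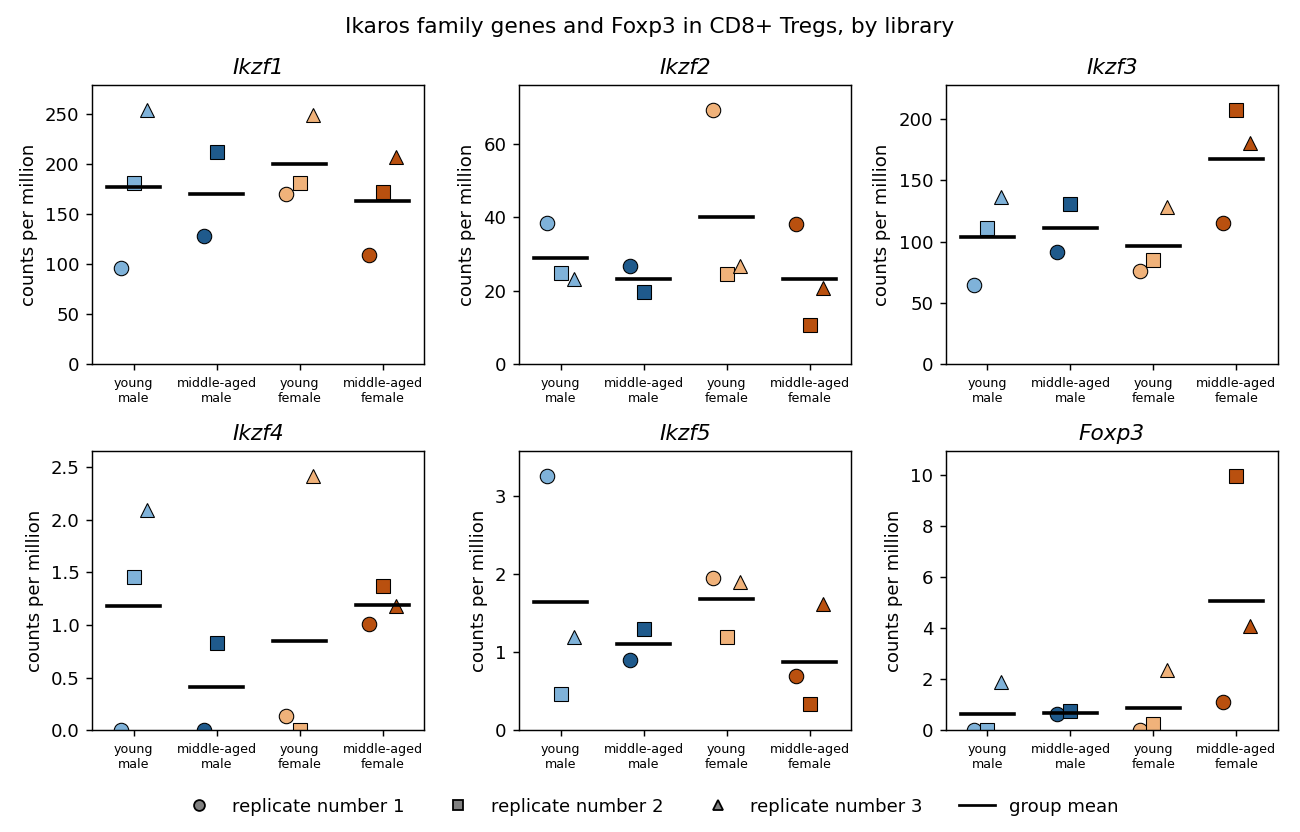
CPM (vertical axes, from 0, a scale for each gene) of the 6 genes in the 4 groups of CD8+ Tregs, with 1 point a library, the shape giving the replicate number and the bar the group mean. Ikzf2 was highest in young female 1 (69.1 CPM), Ikzf3 and Foxp3 were highest in middle-aged female 2 (207 and 9.96 CPM), and young and middle-aged libraries overlapped for each gene.

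The comparison by age found no detectable difference for any of the 6 genes. All 6 passed the filter on low counts, and 0 had an adjusted p under 0.05 in edgeR's quasi-likelihood test with sex as a term and Benjamini-Hochberg adjustment over 13129 genes, where 3 genes in all (0.0229%) did. Likewise 0 of 6 had an unadjusted p under 0.05 in that fit (2.99% of all genes did), 0 passed with limma voom (1.04% of all genes) and 0 with DESeq2 (0.860%). Some alternative fits, described below, gave Ikzf2, Ikzf3 or Foxp3 an unadjusted p under 0.05. The young and middle-aged libraries overlapped for each of the 6, against 1.32% of all genes without overlap. The intervals were wide, however, and differences of the sizes they contain are not excluded by these libraries. In bulk RNA a lower share of cells with a transcript and less of it in each cell cannot be told apart.

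Helios, the factor the study followed as a protein, was not detectably different at the transcript level. By flow cytometry, the paper reports more Helios protein per Helios+ cell in young than in middle-aged or old mice. It reports the largest share of Helios+ cells among CD8+ Tregs in middle age. Bulk transcript levels measure neither of these alone. Ikzf2 (chr1:69531214-69687245, minus strand, mm10) was at 38.5, 24.8 and 23.3 CPM in the young males and at 26.8 and 19.8 CPM in the middle-aged males. It was at 69.1, 24.6 and 26.6 CPM in the young females and at 38.3, 10.8 and 20.8 CPM in the middle-aged females. Young female 1 was the highest and middle-aged female 2 the lowest, and 3 of 5 middle-aged libraries lay below every young one. The means were 34.5 ± 17.9 CPM in young (SD, n = 6) and 23.3 ± 10.1 CPM in middle-aged libraries (SD, n = 5). The log2 fold change, middle-aged over young, was -0.57 (SE 0.39; 95% interval -1.42 to 0.28; edgeR adjusted p = 1.00). An exact permutation test of the mean log2 CPM (two-sided, 462 arrangements, smallest possible p 0.00433) gave p = 0.182.

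The direction of Ikzf2 was the same in both sexes but its size rested on few libraries. The log2 fold change was -0.30 in males alone and -0.77 in females alone, with no detectable interaction of age and sex (edgeR adjusted p = 1.00). The exact permutation p was 0.0476 without middle-aged female 1. Without young female 1 the log2 fold change was -0.22, and without middle-aged female 2 it was -0.37. Without both libraries under 10000000 counts, which were young, it was -0.11 (edgeR adjusted p = 0.923). Among libraries with the same replicate number, middle-aged minus young mean log2 CPM was -0.69 for number 1, -0.75 for number 2 and -0.26 for number 3.

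Ikzf3, which encodes Aiolos, a factor abundant in B cells and in mature T cells, had the smallest p of the 6 in edgeR's test of age, while Foxp3 had the smallest in the permutation test. It was at 64.9, 111 and 137 CPM in young males and at 91.6 and 131 CPM in middle-aged males. In young females it was at 76.2, 84.7 and 128 CPM and in middle-aged females at 115, 207 and 181 CPM. The males overlapped throughout, whereas middle-aged females 2 and 3 lay above all 6 young libraries. The log2 fold change was 0.49 (SE 0.28; 95% interval -0.13 to 1.11; edgeR adjusted p = 1.00, unadjusted p = 0.110), and the exact permutation test gave p = 0.0909. It was 0.36 without middle-aged female 2. Among libraries with the same replicate number, mean log2 CPM differed by 0.55 for number 1, 0.77 for number 2 and 0.45 for number 3. The log2 fold change was 0.10 in males alone and 0.81 in females alone, a difference that was not detectable as an interaction (edgeR adjusted p = 1.00).

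The B cell markers were highest and lowest in the same libraries as Ikzf3. All 10 of the markers in the list, among them Cd22 and Ms4a1, were measured, and their summed level was 137 to 457 CPM in young and 183 to 660 CPM in middle-aged libraries. The highest sums, 660 and 593 CPM, were in middle-aged females 2 and 3, where Ikzf3 was highest, and the lowest, 137 and 139 CPM, in young male 1 and young female 1, where Ikzf3 was lowest. Pax5, the factor that commits cells to the B lineage, was at 0 counts in 2 libraries, and Ms4a1, which encodes CD20, in 1 library. The part of B cell RNA in the level of Ikzf3 was not tested. Ikzf2 ran the other way, with its lowest value in the library of the highest B cell sum.

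**Figure D2:**
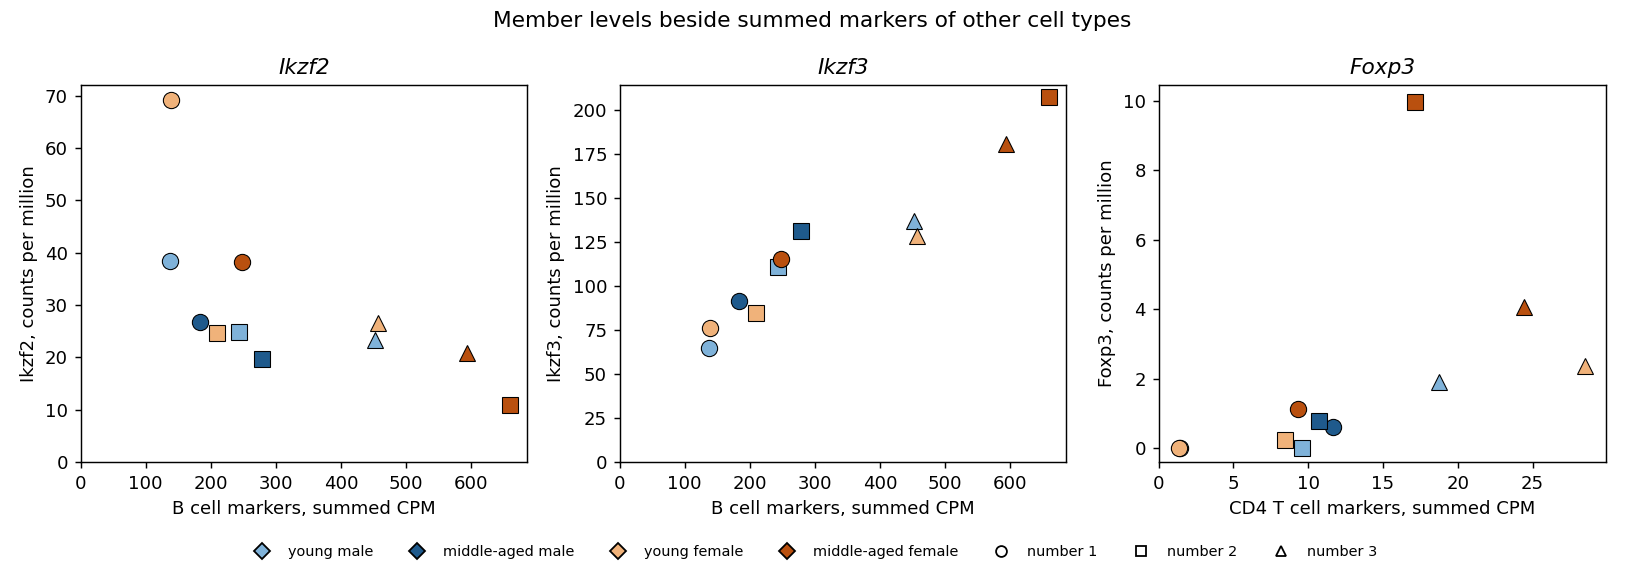
Ikzf2, Ikzf3 and Foxp3 in CPM (vertical axes) against the summed CPM of B cell or CD4 T cell markers (horizontal axes), with 1 point a library, colour for the group and shape for the replicate number. Ikzf3 was highest (207 CPM) where the B cell sum was highest (660 CPM), and Foxp3 was at 0 in both libraries with the lowest CD4 T cell sums, young female 1 and young male 1.

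Ikzf1, the founding member of the family, was the most even across age. It was at 95.9, 182 and 254 CPM in young males and at 128 and 213 CPM in middle-aged males. In young females it was at 170, 181 and 249 CPM and in middle-aged females at 109, 173 and 207 CPM. The spread inside each group was larger than the distance between the group means, and the log2 fold change was -0.19 (SE 0.29; 95% interval -0.81 to 0.43; edgeR adjusted p = 1.00). The exact permutation test gave p = 0.571.

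The balance between the family members varied widely between libraries. Of the counts in the 5 Ikaros family genes, Ikzf2 made up 2.75% (middle-aged female 2) to 21.8% (young female 1) and Ikzf1 41.3% (middle-aged female 1) to 62.1% (young female 2). For each count of Ikzf1 there were 0.0916 to 0.407 counts of Ikzf2 in young and 0.0625 to 0.350 in middle-aged libraries. The count ratio of Ikzf3 to Ikzf1 was 0.449 to 0.676 in young libraries (median 0.527) and 0.617 to 1.20 in middle-aged libraries (median 0.874), and 4 of 5 middle-aged libraries lay above every young one. These ratios do not depend on normalisation between libraries and are given as a description, without a test.

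**Figure D3:**
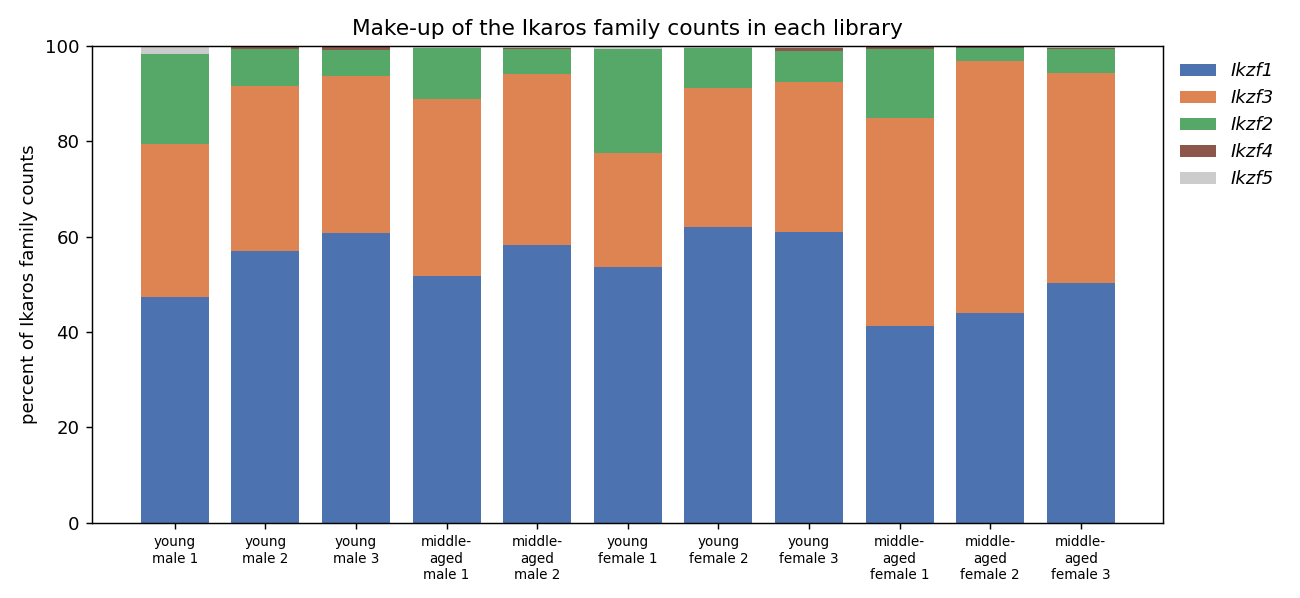
Share of the counts of the 5 Ikaros family genes (vertical axis, percent, from 0 to 100) taken by each gene in each of the 11 libraries. The Ikzf2 share was 19.0% and 21.8% in young male 1 and young female 1 and 2.75% in middle-aged female 2.

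Foxp3 ranged from 0 counts in 3 young libraries to 239 counts in a middle-aged one. In young males it had 0, 0 and 40 counts and in young females 0, 6 and 41 counts, while middle-aged males had 13 and 13 counts and middle-aged females 21, 239 and 86 counts. It was therefore above 3 counts in 3 of 6 young and 5 of 5 middle-aged libraries. The detection limit of 3 counts was 0.542 CPM in young male 1, 0.141 CPM in young male 2 and 0.417 CPM in young female 1. The exact 95% upper limits of their 0 counts were 0.666, 0.173 and 0.512 CPM, for counting error only. Those of young male 1 and young female 1 lie inside the exact 95% interval of middle-aged male 1 (0.617 CPM, 0.329 to 1.06). Counting at this depth therefore does not separate these libraries from middle-aged male 1, the lowest of the middle-aged ones. The upper limit of young male 2 lay below the interval of middle-aged male 1. All 3 upper limits lay below the interval of middle-aged female 1 (1.11 CPM, 0.688 to 1.70). These limits hold only if reads in regions shared with neighbouring genes were counted, which is unknown: Ccdc22, which overlaps Foxp3, was at 0 in all 11 libraries. Middle-aged female 2 was far above the rest at 9.96 CPM (exact 95% interval 8.73 to 11.3), followed by middle-aged female 3 at 4.07 CPM and young female 3 at 2.36 CPM.

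The Foxp3 difference by age did not pass either test. The means were 0.751 ± 1.08 CPM in young (SD, n = 6) and 3.30 ± 3.98 CPM in middle-aged libraries (SD, n = 5), the latter 1.64 ± 1.63 CPM without middle-aged female 2 (SD, n = 4). The log2 fold change was 1.50 (SE 1.38; 95% interval -1.52 to 4.51; edgeR adjusted p = 1.00), and the exact permutation test gave p = 0.0649 for a difference of 2.47 in mean log2 CPM, where the SD was 2.13 in young and 1.63 in middle-aged libraries. Among libraries with the same replicate number that difference was 3.10 for number 1, 3.92 for number 2 and 0.91 for number 3. The log2 fold change was 0.04 in males alone and 2.50 in females alone, with no detectable interaction (edgeR adjusted p = 1.00). The value rested on single libraries: it was 0.84 without middle-aged female 2, 3.15 without young male 3 and 2.41 without young female 3. The permutation p was 0.0397 without either of these last libraries.

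Markers of the CD4 lineage were low and followed Foxp3 only in part. The 3 markers Cd4, Zbtb7b (ThPOK, the factor that directs the CD4 fate) and Cd40lg summed to 1.39 to 28.5 CPM in young and 9.31 to 24.4 CPM in middle-aged libraries. The highest sum was in young female 3 (28.5 CPM), whereas middle-aged female 2, with the highest Foxp3, had 17.1 CPM. Zbtb7b was at 0 counts in young male 1 and young female 1, where Foxp3 was also at 0, and Cd40lg was at 0 counts in 2 libraries. Of the CD4+ Treg genes, Nrp1 was at 11.4 CPM in middle-aged female 2 (0 to 4.73 CPM in the other 10 libraries), Ctla4 at 6.66 CPM (0 to 4.69 CPM) and Tnfrsf4 (OX40) at 19.3 CPM (1.00 to 6.32 CPM). Others were not highest there: Cd4 was at 15.3 CPM, against 18.7 CPM in young female 3, and Il2ra (CD25) at 1.87 CPM, against 3.66 CPM in middle-aged male 1. Izumo1r reached 71.0 CPM in a young library and at most 41.4 CPM in any middle-aged one. The 16 genes of the CD4+ Treg programme summed to 402 CPM in middle-aged female 2 and to 234 to 436 CPM over all libraries. Counts in this list ran from 0 to 3 for Il10 to 1120 to 4775 for Tnfrsf18, so the sum says little about its low genes. The part of CD4+ Treg RNA in the Foxp3 counts was not tested.

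Ikzf4, the Foxp3 corepressor of CD4+ Tregs, and Ikzf5, the most distant member, were too low for a firm comparison. Ikzf4 had 0 to 44 counts in young and 0 to 33 counts in middle-aged libraries and was at 0 in 2 of 6 and 1 of 5. Its log2 fold change was -0.39 (SE 1.35; edgeR adjusted p = 1.00), and the sexes gave -1.57 (males alone) and 0.45 (females alone). Its mean log2 CPM differed by 0.44, of the opposite sign. Ikzf5 had 10 to 33 counts in young and 8 to 34 in middle-aged libraries, and its log2 fold change was -0.75 (SE 0.66; edgeR adjusted p = 1.00). The exact permutation test gave p = 0.723 for Ikzf4 and p = 0.208 for Ikzf5.

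**Figure D4:**
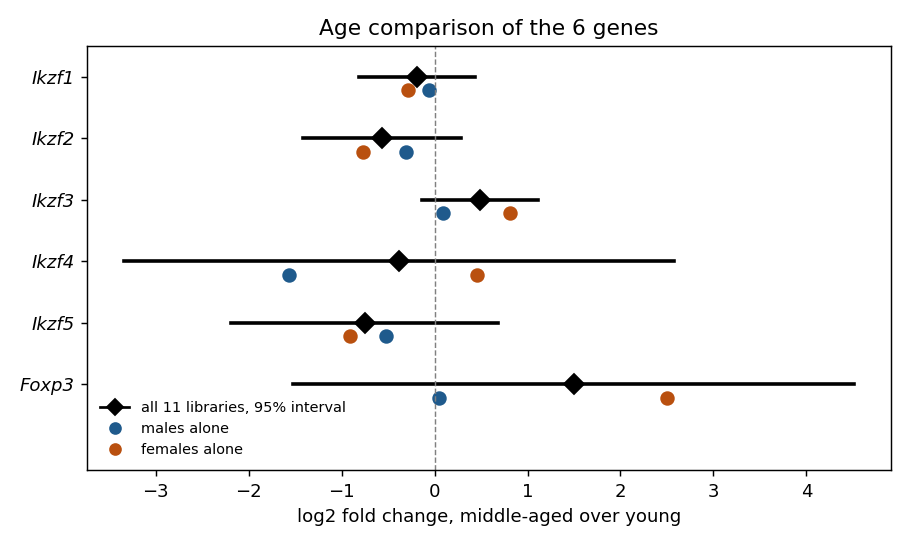
Log2 fold change, middle-aged over young (horizontal axis), for each of the 6 genes (vertical axis), with the estimate over 11 libraries and its 95% interval in black and the estimates in males and females alone in colour. All 6 intervals include 0, from -0.81 to 0.43 for Ikzf1 to -3.34 to 2.57 for Ikzf4.

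The sexes did not differ detectably for any of the 6 genes. Female over male log2 fold changes were 0.07 for Ikzf1, 0.26 for Ikzf2, 0.20 for Ikzf3, 0.34 for Ikzf4, -0.11 for Ikzf5 and 1.44 for Foxp3 (edgeR adjusted p = 1.00 for each). Over all genes 0.0381% passed the same test, and 0% passed the test of an interaction of age and sex.

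Some of the 6 genes differed between the replicate numbers in the labels, as did many genes. This comparison was added after the data were seen, and the labels do not say what a number stands for. In edgeR with sex and age as terms, 3 of 6 genes differed between the numbers, Ikzf1 (adjusted p = 0.0209), Ikzf2 (adjusted p = 0.0283) and Ikzf3 (adjusted p = 0.0185), where 26.3% of all genes did. Ikzf4 (adjusted p = 0.420), Ikzf5 (adjusted p = 0.612) and Foxp3 (adjusted p = 0.0826) did not pass. With that background, the count of 3 is no result particular to these genes. Libraries numbered 1 had Ikzf2 at 26.8 to 69.1 CPM, against 10.8 to 24.8 CPM for number 2 and 20.8 to 26.6 CPM for number 3. For Ikzf1 the order was the other way, with 95.9 to 170 CPM for number 1, 173 to 213 CPM for number 2 and 207 to 254 CPM for number 3. Relative to number 1, the log2 fold changes of Ikzf3 were 0.60 for number 2 and 0.87 for number 3. Number 1 also held both libraries under 10000000 counts, while its middle-aged libraries were deeper. Detected genes ranged from 13025 to 16984 in number 1, from 15278 to 17741 in number 2 and from 18292 to 19372 in number 3. The part of detected genes in these differences was not tested.

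These calls depended on single libraries. Leaving out each of the 11 libraries in turn, Ikzf1 passed in 8 fits, Ikzf3 in 9 and Ikzf2 in 4 (edgeR adjusted p 0.0207 to 0.0913 for Ikzf2). Ikzf1 did not pass without young male 3, young female 3 or middle-aged female 1, and Ikzf3 did not pass without young male 3 or middle-aged male 1. Ikzf2 did not pass without young male 2 or 3, young female 1, 2 or 3, or middle-aged female 1 or 3, nor with scaling by library size alone (edgeR adjusted p = 0.0704). In the 9 libraries over 10000000 counts, Ikzf1 alone passed (edgeR adjusted p = 0.00572).

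The genes whose log2 CPM over the 11 libraries ran most like each member are given as a description, chosen from 9488 genes with a mean of at least 5 CPM. For Ikzf2 they were Hnrnpdl (r = 0.97), Slc35b3 (r = 0.95) and Gnl3 (r = 0.93), and for Ikzf1 Nup188 (r = 0.97), Kcnab2 (r = 0.96) and Rnpepl1 (r = 0.96). For Ikzf3 they were Mis12 (r = 0.95) and the MHC class II genes Cd74 (r = 0.95) and H2-Aa (r = 0.94), both highly expressed by B cells. Foxp3 ran most like Ckap5 (r = 0.89), Ankrd28 (r = 0.88) and Cd74 (r = 0.88). Ikzf4 was nearest to Lrrfip2 (r = 0.95), Hltf (r = 0.92) and Gucd1 (r = 0.92), and Ikzf5 to Zfp329 (r = 0.91), Pcf11 (r = 0.87) and Wasf2 (r = 0.87). The libraries share depth and replicate number, so these likenesses are not independent of either.

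The corepressor partners of Ikaros proteins were all high enough to test, and none differed detectably by age. All 13 genes of the NuRD complex, the chromatin remodelling and deacetylase complex that Ikaros proteins recruit, were tested, and 0 passed (edgeR, adjusted p), with a median log2 fold change of -0.0023 against 0.0028 for all genes. The 3 with the smallest p were Mta1 (log2 fold change 0.43, SE 0.34), Chd4 (-0.23, SE 0.20), the helicase of the complex, and Chd3 (-0.21, SE 0.25). Of 8 other corepressors 0 passed, with a median of -0.03, and Ncor1 (-0.23, SE 0.20), Sin3a (-0.24, SE 0.27) and Hdac3 (0.19, SE 0.22) had the smallest p. Neither list held a gene with an unadjusted p under 0.05, which 2.99% of all genes had.

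Of the 18 partners and regulators of Foxp3, 0 passed and the median log2 fold change was -0.05. Lef1, a T cell factor of the Wnt pathway, was at 345 to 541 CPM in young and 235 to 350 CPM in middle-aged libraries (log2 fold change -0.47, SE 0.20; edgeR unadjusted p = 0.0381, adjusted p = 1.00). It was the only one of the 18 with an unadjusted p under 0.05, where 0.990% of all genes had such a p with a lower level in middle-aged mice. Runx1, a partner of Foxp3, followed at -0.57 (SE 0.32), and Foxo3 at -0.76 (SE 0.45).

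The CD4+ Treg programme was mostly low, and 0 of the 13 tested of its 16 genes passed. Il10 was at 0 counts in 10 of 11 libraries and Lrrc32 (GARP) in 7 of 11. Izumo1r, the folate receptor 4 of CD4+ Tregs, had a log2 fold change of -1.46 (SE 0.59; edgeR adjusted p = 1.00) and Capg, an actin-capping protein, of 0.70 (SE 0.29; edgeR adjusted p = 1.00). They were the only ones with an unadjusted p under 0.05, against 0.990% of all genes with such a p and a lower level and 2.00% with a higher one. Ebi3, a subunit of IL-35, was at 2.14 (SE 1.11), or 0.88 without middle-aged female 2.

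Among 10 genes listed as targets of Ikaros proteins, 4 were high enough to test and 0 passed. How Ikaros proteins act on these genes in CD8+ Tregs was not tested. Rag1 and Rag2, the recombinase genes, were at 0 counts in all 11 libraries. The Notch target Hes1 was at 1.22 (SE 1.15), or 0.05 without middle-aged female 2, while the surrogate light chain gene Vpreb1 was at 0.54 (SE 0.86) and Dtx1, another Notch target, at -0.24 (SE 0.44). Il2, which Ikaros proteins silence in T cells, had 2 to 35 counts and was the other gene tested (-0.02, SE 0.64).

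Of 13 genes of the CD8+ Treg gate and identity, 0 passed, with a median log2 fold change of 0.0083. Eomes, a T-box factor of memory CD8 T cells, was at 72.6 to 218 CPM in young and 155 to 332 CPM in middle-aged libraries (log2 fold change 0.61, SE 0.31; edgeR adjusted p = 1.00). Itga4, which encodes CD49d, was at -1.06 (SE 0.57) and Cd44 at 0.22 (SE 0.30).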

How the data were processed

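The members and gene lists were chosen with earlier results of these data known. RNA of sorted cells was made into SMARTer libraries, and the authors deposited a table of whole-number read counts per Ensembl gene for 11 libraries. The submitters' processing notes name kallisto, without a version, and mm10, and the counter was not given in the sources used here. The deposited gene lengths in bases (another column) served for levels per kilobase.

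Counts were tested with edgeR 4.0.16 (R 4.3.3): TMM factors, filterByExpr by age (minimum count 10, total 15), robust quasi-likelihood fit, model sex plus age, Benjamini-Hochberg adjustment and threshold 0.05. limma 3.58.1 and DESeq2 1.42.0 were alternatives. Exact permutation tests compared mean log2 CPM (prior count 2). Detection limits are 3 counts, and 95% intervals of counts are exact binomial ones. They cover counting error only. The fit was also run on counts simulated from its own estimates. That simulation held no effect of replicate number, so it cannot show how such an effect changes the age test. Libraries were averaged by age, and p-values measure only the spread between these libraries, since separate mice were not stated in the labels. Named genes were the 6 members, the genes past the threshold or otherwise the 3 of smallest p in each list, and the 3 most correlated with each member. Other Treg, marker and neighbouring genes were named after their values were seen. Sequences came from GENCODE M21 (GRCm38). GENCODE M21 starts Foxp3 further upstream than the deposited table, so its release differs.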

Additional observations from a re-analysis of the deposited data

Results flagged for a closer look

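Of 38 groups of young or middle-aged libraries examined for a value far from the others, 4 held one, and chance gives about 5% of such groups. Ikzf2 in young female 1 was at 69.1 CPM, against 23.3 to 38.5 CPM in the other young libraries. Middle-aged female 2 held the others: its plasma cell markers summed to 366 CPM (116 to 164 CPM in the other middle-aged libraries), its NK cell markers to 890 CPM (189 to 359 CPM) and its myeloid markers to 2714 CPM (157 to 337 CPM).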

How the results depend on the processing

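None of the 6 genes passed the age test under any of the 24 alternatives run, although only 3 of them could be tested when at least 10 counts were required in every library. Ikzf2 stayed negative throughout, from -0.77 to -0.11 over other settings and -0.80 to -0.22 with each library left out (edgeR, limma or DESeq2 adjusted p 0.510 to 1.00). The smallest unadjusted p over other settings (edgeR, limma or DESeq2) was 0.0200 for Ikzf2, 0.00395 for Ikzf3 and 0.00974 for Foxp3. For Ikzf1, Ikzf4 and Ikzf5 it was 0.156, 0.464 and 0.242. With each library left out, the smallest edgeR unadjusted p was 0.0465 for Ikzf3 and 0.0234 for Foxp3. Shares of all genes at such a p in those fits were not computed. Ikzf4 turned positive with a replicate block within sex (1.16), a replicate block shared by both sexes (0.56) and in females only (0.45), and ranged from -0.84 to 0.87 with each library left out; its difference in mean log2 CPM ranged from -0.023 (without young male 1 or young female 2) to 1.13. The cause was not tested. Genes differing between replicate numbers went from 3 of 6 to 1 in libraries with over 10000000 counts, and to 0 to 3 with each library left out. Over all genes the age test made 3 calls, against 136 with limma voom, 112 with DESeq2, 17 with any gene of 1 count, 5 with 10 counts in every library, 5 without the sex term, 6 in libraries over 10000000 counts, 0 in males only, 0 in females only and 1 to 4 with each library left out.

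Replicate numbers are shared by the groups. Deviations of same-numbered libraries correlated at 0.323 and 0.176 in males and 0.428, 0.0287 and 0.392 in females. Of 11 libraries, 9 correlated best with a library of their own number. The labels do not say what a number stands for, and the main model held no term for it. Differences between numbers therefore stayed in the spread against which age was tested. A replicate block within sex gave 2 calls over all genes and a shared block 19, with Ikzf2 at -0.65 (edgeR adjusted p = 0.716) and -0.61 (edgeR adjusted p = 0.510), and Foxp3 at 4.28 (edgeR adjusted p = 0.603) and 4.13 (edgeR adjusted p = 0.414). The 6 pathway lists had 0 calls in each alternative run, and Ikzf5 ranged from -0.91 to -0.07 over other settings.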

Other observations

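The lists of markers of other cells had 0 genes past the age test in edgeR (adjusted p). All 8 NK cell markers had negative log2 fold changes (median -0.87), and 4 had an unadjusted p under 0.05, against 0.990% of all genes with such a p and a lower level. The list does not stand for all NK genes: it left out Klrk1, Klrc1, Klrc2, Klrc3 and Fcgr2b. The paper reports these as higher in middle-aged CD8+ Tregs and Klra4 as lower, with an NK cell signature enriched in middle age. Whether the RNA of the 8 markers came from CD8+ Tregs or from NK cells was not tested. Klra4, which encodes the activating receptor Ly49D, was at 30.6 to 52.9 CPM in young and 8.20 to 26.3 CPM in middle-aged libraries, without overlap. Its log2 fold change was -1.70 (SE 0.34; edgeR adjusted p = 0.228), and it passed with limma voom (adjusted p = 0.00682) and DESeq2 (adjusted p = 0.000407). Gzma was at -2.20 (SE 0.62), or -3.22 without middle-aged female 2, and Ncr1 at -2.33 (SE 0.69), or -2.87 without that library. Both also passed with limma voom (adjusted p = 0.00575 and 0.0108) and DESeq2 (adjusted p = 0.0150 and 0.0232).

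The 9 myeloid markers had a median of 1.19, with 3 at an unadjusted p under 0.05 (2.00% of all genes, higher), led by Lyz2 at 2.38 (SE 0.79), or 1.19 without middle-aged female 2. S100a8 was at 4.18 (SE 1.60), or 2.08 without that library, and S100a9 at 3.96 (SE 1.71), or 1.70. Of 6 erythroid and platelet markers 4 were tested (median -0.86), with Hbb-bs at -2.85 (SE 0.78), Hba-a1 at -2.67 (SE 0.92) and Pf4 at 1.74 (SE 1.53), or -0.52 without middle-aged female 2. The medians were 0.14 for 10 B cell, 0.46 for 5 plasma cell, 0.66 for 7 dendritic cell and -0.28 for 3 CD4 T cell markers, with no unadjusted p under 0.05. Cd22 was at 1.54 (SE 0.73), or 1.23 without middle-aged female 2, Jchain at 2.54 (SE 1.17), or 1.61, Xcr1 at 1.17 (SE 0.76) and Zbtb7b at 0.97 (SE 1.01).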
